A study of Homo sapiens with 6 samples.

Results

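Transcripts of 40 genes that carry a cell through mitosis were followed in 2 cholangiocarcinoma (CCA) cell lines, HuCCT1 and KKU-100, treated with regorafenib, an oral inhibitor of receptor tyrosine kinases and RAF kinases. The 40 genes were chosen by symbol, as cyclins, mitotic kinases, spindle checkpoint, kinetochore, spindle and cytokinesis genes. The rule uses no measured value, but earlier results of these data were known when the genes were chosen. The 40 genes are represented by 77 probe sets annotated to 1 of these symbols alone. Without controls, the array has 54613 probe sets, and 19775 genes can be read without a shared symbol. Where a gene had several probe sets, the brightest on average was used, and all 40 genes passed the level filter in both lines. There was 1 array for each of 6 conditions, so that each line had a solvent control, a low dose and a high dose array. Treatment lasted 6 h. The sample labels, which spell the first line HuccT1, state 1 μM and 10 μM of regorafenib. The results text of the study states lower doses, so the arrays are named by low and high dose here. The labels describe HuccT1 as bile duct carcinoma and KKU-100 as poorly differentiated cholangiocarcinoma. For all 6 samples they also state puromycin selection and stable transduction, with no construct named. Whether solvent and treated cells carry the same construct is therefore not known. Each line is an established culture of 1 tumor. Fold changes between 2 arrays have neither replicates nor a p-value behind them, and a gene was called higher or lower when it passed 1.5-fold, the cutoff of the study. Both doses of a line were compared with the same solvent array.

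Entry into mitosis is driven by CDK1 bound to cyclin B, which the CDC25 phosphatases switch on. PLK1 and the Aurora kinases then build the spindle, kinetochores tie chromosomes to its microtubules, and the spindle checkpoint holds back the anaphase-promoting complex until every kinetochore is attached. Most of these genes are transcribed together late in the cell cycle, under the MuvB complex with B-MYB and FOXM1, so their RNA in a culture follows how many cells are in G2 and M phase. In bulk RNA, fewer cells in these phases and less RNA in each cell cannot be told apart.

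Promoter sequences show 2 short motifs that many of the 40 genes share. The cell cycle genes homology region, TTTGAA or TTTAAA, is the element that MuvB contacts, and CCAAT is the element of NF-Y. RefSeq windows (GRCh38.p14, 250 bases before to 50 bases after an annotated start) were at hand for 33 of the 40 genes, with 43 windows in all, and FOXM1, AURKA, BUB3, TTK, BIRC5, TPX2 and UBE2C had no entry. Read on both strands, TTTGAA stood in 62.8% of the 43 windows and in 12.4% of 22199 windows of protein-coding genes. TTTAAA stood in 32.6% against 10.2%, and CCAAT in 74.4% against 34.7%. A window with CCAAT and with either form of the other motif made up 60.5% of the member windows and 7.98% of all windows. Each motif was counted on its own, also where matches share letters, and a match is a description of the sequence. The 150 bases before the start are shown, on the strand of the gene, for 7 genes to which the array results below return, with the 2 motifs in capitals on whichever strand they lie, so that CCAAT can appear as its reverse complement ATTGG. CDC25C has 4 annotated windows, of which 2 hold both TTTGAA and CCAAT and the other 2 hold neither. The window shown for it is the one farthest downstream.
PLK1, chr16:23678739-23678888 (plus strand): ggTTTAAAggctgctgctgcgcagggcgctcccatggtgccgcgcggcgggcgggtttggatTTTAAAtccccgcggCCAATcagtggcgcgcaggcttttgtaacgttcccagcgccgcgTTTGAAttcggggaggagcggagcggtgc
CDC20, chr1:43358831-43358980 (plus strand): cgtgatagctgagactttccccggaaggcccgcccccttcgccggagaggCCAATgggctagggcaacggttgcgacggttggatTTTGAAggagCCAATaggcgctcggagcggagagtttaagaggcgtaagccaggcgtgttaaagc
BUB1B, chr15:40160919-40161068 (plus strand): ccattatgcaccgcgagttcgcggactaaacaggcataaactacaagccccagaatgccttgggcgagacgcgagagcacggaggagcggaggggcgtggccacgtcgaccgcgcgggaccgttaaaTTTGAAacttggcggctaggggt
PRC1, chr15:90994536-90994685 (minus strand): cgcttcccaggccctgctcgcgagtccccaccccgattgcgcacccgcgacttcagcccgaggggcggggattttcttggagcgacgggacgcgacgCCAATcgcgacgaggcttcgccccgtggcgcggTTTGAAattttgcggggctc
CCNB1, chr5:69167000-69167149 (plus strand): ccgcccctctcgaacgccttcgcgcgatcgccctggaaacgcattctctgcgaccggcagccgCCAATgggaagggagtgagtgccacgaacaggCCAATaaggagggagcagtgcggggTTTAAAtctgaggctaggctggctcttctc
INCENP, chr11:62123861-62124010 (plus strand): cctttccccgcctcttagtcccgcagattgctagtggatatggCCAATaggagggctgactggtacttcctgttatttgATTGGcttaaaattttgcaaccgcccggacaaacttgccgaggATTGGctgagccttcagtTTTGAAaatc
CDC25C, chr5:138331805-138331954 (minus strand): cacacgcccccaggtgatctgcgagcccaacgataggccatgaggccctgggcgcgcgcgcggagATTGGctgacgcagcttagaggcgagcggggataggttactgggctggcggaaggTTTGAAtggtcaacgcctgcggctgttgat
TTTGAA stands at −29 from the start of PLK1, which was higher at both doses in KKU-100, and at −30 from this start of CDC25C, which was lower at both. INCENP, which was lowest at the high dose in both lines, has TTTGAA at −10 and 3 CCAAT matches.

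The 40 genes were lower in KKU-100 than in HuCCT1 at every treatment, with CDC25B as the exception. In the limma fit over the 6 arrays, with treatment as a block, 39 of 40 were called lower in KKU-100 at an adjusted p under 0.05, where 26.3% of all 12833 genes were called lower and 27.9% higher. The median log2 difference was −1.40 over the 40 genes and 0.01 over all genes. For 39 of 40 genes all 3 KKU-100 arrays lay below all 3 HuCCT1 arrays, a pattern of 29.2% of all genes. In solvent alone, 34 of 40 were lower in KKU-100 past 2-fold, against 14.2% of all genes. The 3 arrays of a line are different treatments of 1 line, so these p-values measure the spread between the 6 arrays and not between cultures.

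**Figure D1:**
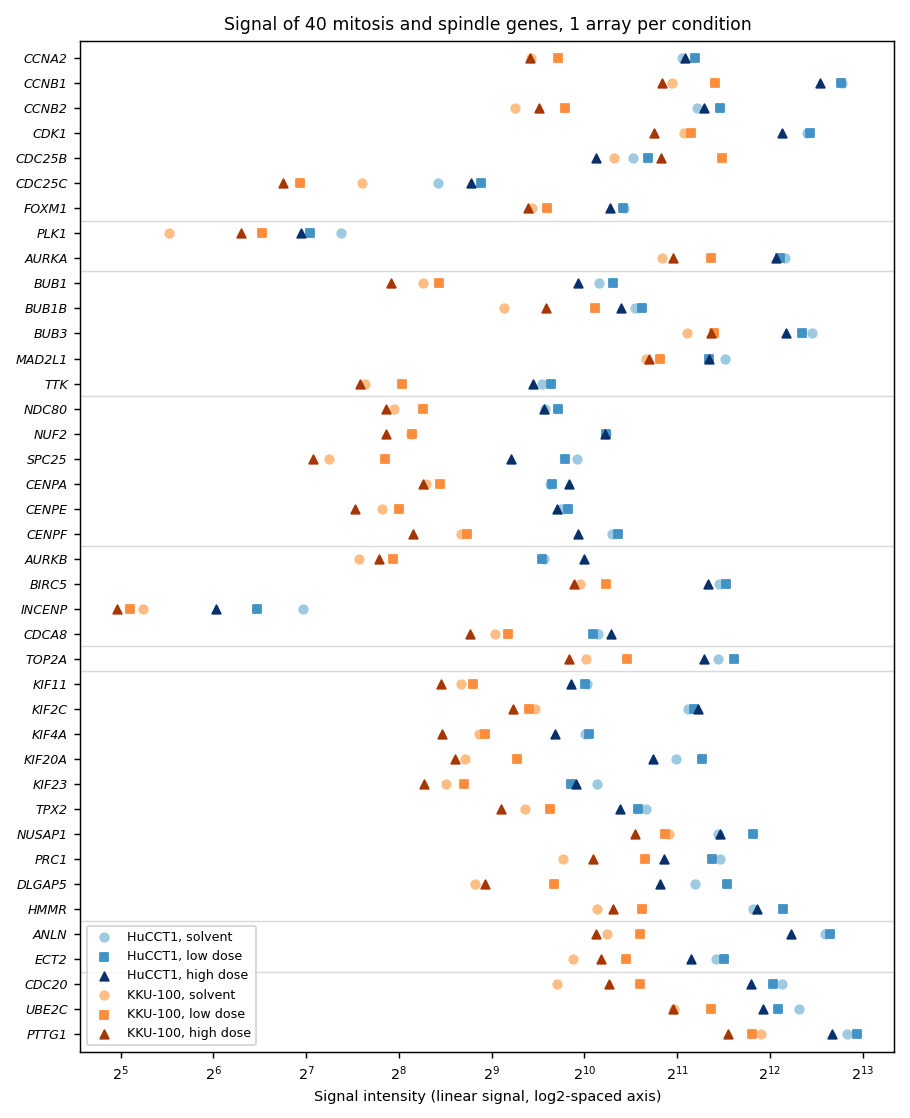
Signal intensity (log2-spaced axis) of each of the 40 genes on the 6 arrays, grouped by role from mitotic entry at the top to partners of the anaphase-promoting complex at the bottom. Blue points (HuCCT1) lie to the right of orange points (KKU-100) for 39 of 40 genes, and CDC25B is the exception. Signals of different genes come from different probes and are not compared.

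The widest gaps between the lines were those of kinetochore, cytokinesis and spindle genes. SPC25, a subunit of the NDC80 complex that grips microtubules, differed by −2.25 ± 0.18 (SE, limma adjusted p = 0.000334), and its partner NUF2 by −2.19 ± 0.12 (SE, limma adjusted p = 0.000109). ANLN (anillin), a scaffold of the cleavage furrow, had signals of 6178, 6425 and 4782 in HuCCT1 (solvent, low dose and high dose, an order kept below) and 1213, 1548 and 1119 in KKU-100, with a log2 difference of −2.17 ± 0.08 (SE, limma adjusted p = 4.15e-05). KIF20A, a kinesin of the central spindle, had 2031, 2461 and 1708 in HuCCT1 against 421, 621 and 389 in KKU-100, with −2.13 ± 0.11 (SE, limma adjusted p = 7.8e-05). For both genes the lowest HuCCT1 array was above the highest KKU-100 array. HMMR, a spindle assembly protein, had 3613, 4512 and 3726 in HuCCT1 against 1127, 1576 and 1272 in KKU-100, and differed by −1.58 ± 0.07 (SE, limma adjusted p = 6.55e-05). CCNB2 (cyclin B2), whose signals were 2376, 2820.1 and 2497 in HuCCT1 against 609, 886 and 729.6 in KKU-100, differed by −1.80 ± 0.10 (SE, limma adjusted p = 0.000103). The narrowest called gap was that of MAD2L1, a checkpoint protein, with −0.68 ± 0.09 (SE, limma adjusted p = 0.00202). CDC25B, a phosphatase that activates CDK1 at the centrosome, was the member not called lower, with 0.43 ± 0.21 (SE) and an adjusted p of 0.141. By role, the median difference ran from −1.83 over the 6 kinetochore and centromere genes to −1.03 over PLK1 and AURKA.

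**Figure D2:**
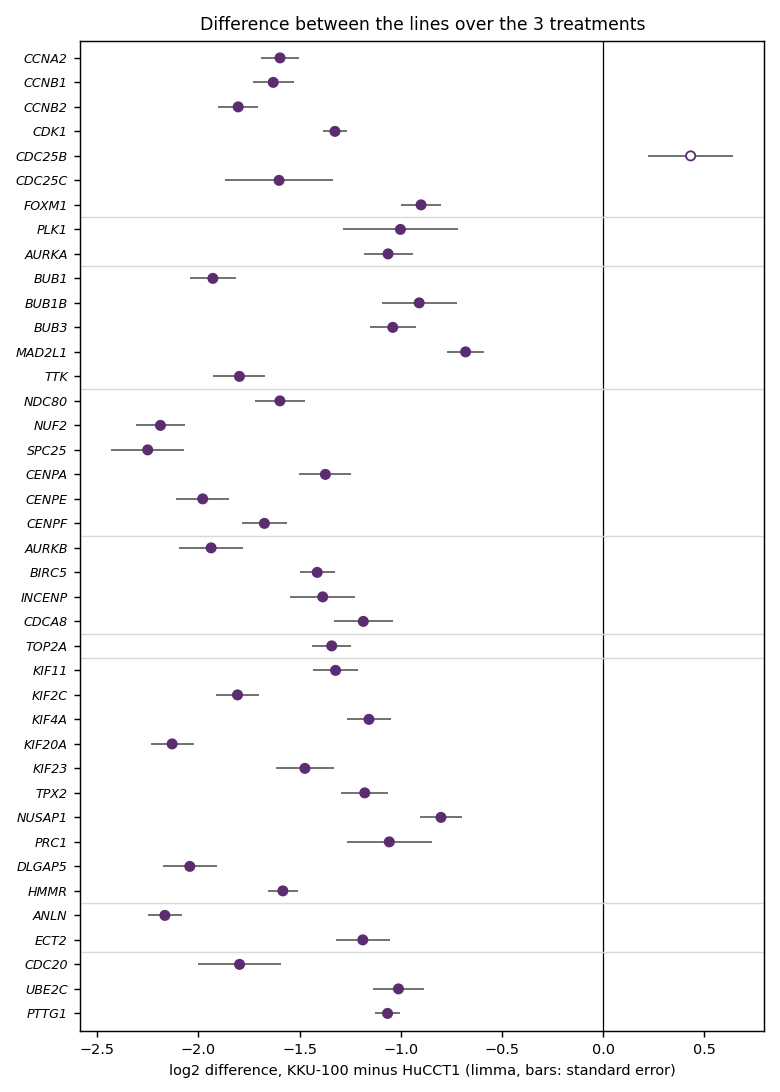
The limma log2 difference between KKU-100 and HuCCT1 over the 3 treatments, with bars of 1 standard error. Filled points were called at an adjusted p under 0.05. The 39 filled points lie between −2.25 (SPC25) and −0.68 (MAD2L1), and CDC25B is the open point at 0.43.

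Counts for other gene lists in the same fit are given beside these. Of 41 DNA replication genes, a list kept for comparison, 24 were called lower in KKU-100 and 2 higher by limma, with a median of −0.75. Of 12 housekeeping genes 6 were called lower and 5 higher, with a median of −0.09. Among 158 measured genes of 8 related lists (MuvB subunits, other kinetochore genes, condensin and cohesin, anaphase-promoting complex subunits, mitotic entry regulators and others), 108 were called lower and 12 higher. Whether these lists differ from the 40 genes was not tested.

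In HuCCT1 the low dose left all 40 genes within 1.5-fold, and at the high dose 3 of them were lower. At the low dose the log2 fold changes ran from −0.49 to 0.46 with a median of 0.05 (0.02 over all 12789 genes of the line), and 3.32% of all genes were lower and 3.68% higher past the cutoff. At the high dose INCENP, SPC25 and PRC1 were lower past 1.5-fold and no member was higher, where 6.44% of all genes were lower and 8.23% higher. The 3 of 40 called lower is close to that background. The sign was more uneven than the calls, since 31 of 40 lay below 0 there against 47.9% of all genes, with a median of −0.17 against 0.02.

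In KKU-100, 7 of the 40 genes were higher past 1.5-fold at the low dose, and the high dose left 1 of them there. At the low dose CDC25B, PLK1, BUB1B, CDC20, PRC1, DLGAP5 and SPC25 were higher and CDC25C was lower, where 9.75% of all 12694 genes were higher and 7.32% lower. The 7 of 40 is a larger share than this background and the 1 of 40 a smaller one. In all, 35 of 40 were above 0, against 57.7% of all genes, with a median of 0.29 against 0.06. At the high dose PLK1 was higher and CDC25C lower past 1.5-fold, which is fewer than the background of 9.44% higher and 4.86% lower. At that dose 27 of 40 were below 0 where 42.4% of all genes were, with a median of −0.10 against 0.06.

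**Figure D3:**
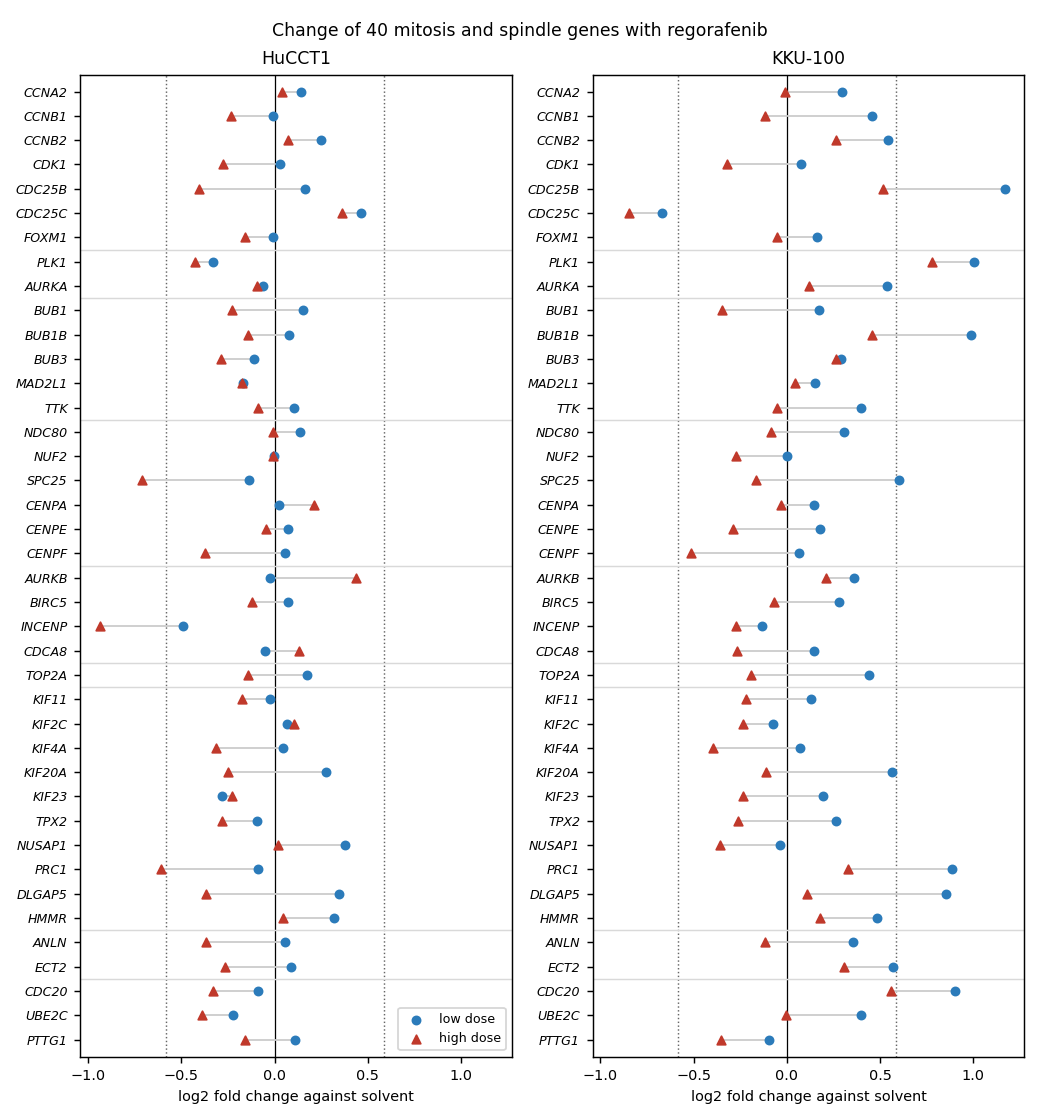
Log2 fold change of each member against the solvent array of its line, at the low dose (circles) and the high dose (triangles), with dotted lines at 1.5-fold. In KKU-100 each triangle lies to the left of its circle, and 7 circles lie past the right dotted line. In HuCCT1 no circle passes a dotted line and 3 triangles (INCENP, SPC25 and PRC1) pass the left one.

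Between the doses, all 40 genes had the same sign in KKU-100, and 35 of them were within 1.5-fold. Each was below 0 for the high against the low dose, a sign shared by 51% of all genes, with a median of −0.39 against −0.01 and a range from −0.77 to −0.03. SPC25, DLGAP5, KIF20A, CDC25B and TOP2A were lower past 1.5-fold and none was higher, where 1.74% of all genes were lower and 4.53% higher, so the members' share of lower calls is above the background. In HuCCT1 35 of 40 were below 0, against 50.8% of all genes, with a median of −0.19 against −0.01. There DLGAP5 alone passed 1.5-fold, where 4.64% of all genes were lower and 6.57% higher. The order of the 3 arrays within a line can be read from the same values. In KKU-100 the low dose array was the highest of the 3 for 35 of 40 genes (37% of all genes, against 21 genes and 31.7% in HuCCT1), and the high dose array the lowest for 27 (25.6%). In HuCCT1 the high dose array was the lowest for 30 (35.6%), and 14 genes stepped down from solvent to low to high dose (19.1%). In KKU-100 the counts for the low dose against solvent and for the high against the low dose both use the single low dose array, so they are not separate evidence.

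The KKU-100 high dose array stood apart in 1 measure of RNA quality. Its ACTB 3′ to 5′ ratio was 1.68, where the other 5 arrays lay between 1.13 and 1.27. The GAPDH ratio lay between 1.03 and 1.06 on all 6 arrays. The probe sets of 1 gene also disagreed more in this comparison. Over the 17 members of which KKU-100 had several probe sets above the filter, the median spread was 0.41 in log2 fold change at the high dose and 0.13 at the low dose. The part of this array's quality in the results at the high dose was not tested. For the high against the low dose in KKU-100, 62 of 63 member probe sets were below 0, where 52.2% of 27307 probe sets were. Of the cell type markers above the filter, 5 of 5 biliary genes (median −0.35) and 3 of 3 fibroblast genes (median −0.26) were below 0 in this comparison too, and their part in the members' change was not tested.

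Calls below are those of the brightest probe set of a gene. In 10 members (ANLN, AURKB, BUB3, CCNB1, CDK1, CENPF, ECT2, KIF23, NUSAP1 and TOP2A) another probe set above the filter passed 1.5-fold in a comparison in which the brightest did not. ECT2 had the widest spread, since its second probe set gave −0.86 in HuCCT1 and −1.09 in KKU-100 at the high dose, where the brightest gave −0.27 and 0.30. That second probe set is of a kind that can match several genes. For NUSAP1 the second probe set gave −1.09 at the high dose in KKU-100, and for CDK1 the other two gave −0.60 and −0.66 there.

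**Figure D4:**
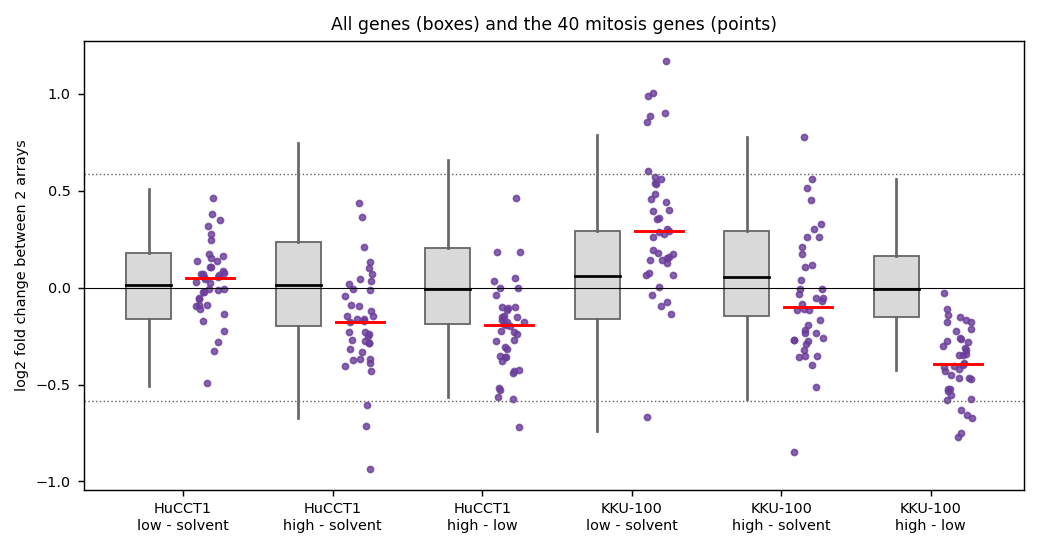
Log2 fold changes between single arrays for all genes past the level filter (boxes from the 25th to the 75th percentile with the median, lines to the 5th and 95th) and for the 40 members (points, median in red). In KKU-100 the median of the points lies above the box median at the low dose (0.29 against 0.06), and all points lie below 0 for the high against the low dose.

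Among the mitotic entry genes, the cyclins and CDK1 stayed within 1.5-fold of solvent by the probe sets used and the 2 CDC25 phosphatases passed it in opposite directions in KKU-100. CCNB1 (cyclin B1) had signals of 7007, 6963 and 5946 in HuCCT1 against 1977, 2712 and 1823 in KKU-100, with log2 fold changes, for the low and then the high dose, of −0.01 and −0.24 in HuCCT1 against 0.46 and −0.12 in KKU-100. A second CCNB1 probe set gave 1.07 and 0.58 in KKU-100, so the call at the low dose depends on the probe set. CDK1, the kinase itself, had 5413, 5527 and 4471 in HuCCT1 against 2161, 2276 and 1728 in KKU-100, and the high dose array was the lowest in both lines, with −0.28 in HuCCT1 and −0.32 in KKU-100. CDC25B had 1473, 1647 and 1113 in HuCCT1 against 1273, 2863 and 1819 in KKU-100, for log2 fold changes of 0.16 and −0.40 in HuCCT1 against 1.17 and 0.51 in KKU-100. The low dose array of KKU-100 was thus 2.25 times its solvent array, the widest such ratio of a member by the probe sets used. CDC25C, a phosphatase that acts on CDK1 and cyclin B, had 342, 472 and 440.2 in HuCCT1 against 194, 122 and 108 in KKU-100. Its log2 fold changes were 0.46 and 0.36 in HuCCT1, within 1.5-fold, and −0.67 and −0.85 in KKU-100, where it was lower past 1.5-fold at both doses. Its second probe set past the filter moved alike, at 0.54 and 0.53 in the HuCCT1 arrays but −0.61 and −0.76 in those of KKU-100. Both probe sets are of the kind that can match several transcripts. FOXM1, the transcription factor of late cell cycle genes, stayed within 1.5-fold. Its HuCCT1 signals were 1381, 1370.5 and 1236 and its KKU-100 signals 694, 775 and 669.5, for log2 fold changes of −0.01 and −0.16 against 0.16 and −0.05. CCNA2 and CCNB2 stayed within 1.5-fold in every comparison.

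PLK1, the polo kinase of spindle assembly, was the member higher past 1.5-fold at both doses in KKU-100. Its signals were 166, 132 and 123 in HuCCT1 against 46.1, 92.3 and 78.9 in KKU-100, with log2 fold changes of −0.33 and −0.43 in HuCCT1 against 1.00 and 0.78 in KKU-100. The 3 HuCCT1 arrays stepped down while both treated KKU-100 arrays were above solvent, and the lines still did not overlap. PLK1 rests on 1 probe set, and its solvent signal in KKU-100 is low, though above the array median of 29.2. AURKA (Aurora A), the centrosomal kinase, had 4595, 4407 and 4297 in HuCCT1 against 1824, 2642 and 1979 in KKU-100, and none of its changes passed 1.5-fold.

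**Figure D5:**
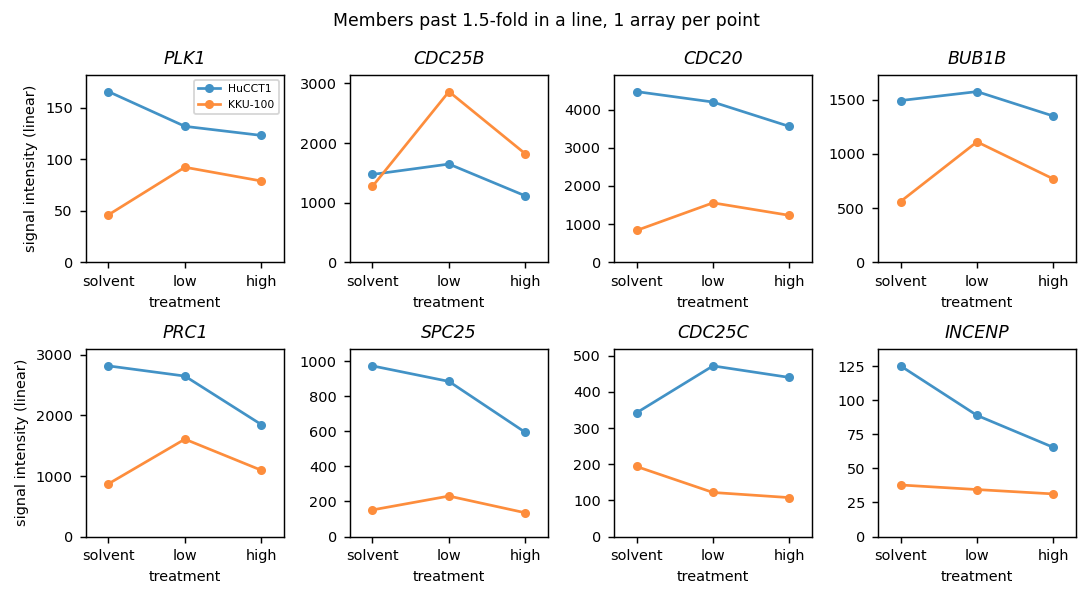
Signal intensity (linear axis from 0) of 8 members on the solvent, low dose and high dose arrays, with 1 array per point, HuCCT1 in blue and KKU-100 in orange. PLK1, CDC25B, CDC20, BUB1B, PRC1 and SPC25 peak at the low dose in KKU-100, whereas CDC25C and INCENP step down there.

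Of the 5 spindle checkpoint genes, BUB1B passed 1.5-fold and the other 4 did not in any comparison. BUB1B, the BubR1 protein that inhibits CDC20, had 1492, 1575 and 1349 in HuCCT1 against 560.3, 1111 and 768 in KKU-100, with log2 fold changes of 0.08 and −0.15 in HuCCT1 against 0.99 and 0.45 in KKU-100. BUB1, a kinase at unattached kinetochores, had 1141, 1267 and 975 in HuCCT1 against 307, 346 and 241 in KKU-100, and the high dose array was the lowest in both lines. With the low dose 3 of the 5 genes were above 0 in HuCCT1 (52.7% of all genes) and 5 in KKU-100 (57.7%), there from 0.15 to 0.99. With the high dose 5 were below 0 in HuCCT1 (47.9%), from −0.29 to −0.09, and 2 in KKU-100 (42.4%).

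Among the 6 kinetochore and centromere genes, SPC25 moved past the cutoff in both lines. Its signals were 972, 884 and 593 in HuCCT1 against 152, 231 and 135 in KKU-100, with log2 fold changes of −0.14 and −0.71 in HuCCT1 against 0.60 and −0.17 in KKU-100. The high dose array was the lowest in each line. CENPF, a large protein of the outer kinetochore, had 1262, 1312 and 975 in HuCCT1 against 408, 427 and 285 in KKU-100, with −0.37 in HuCCT1 and −0.51 in KKU-100 at the high dose. A second CENPF probe set gave −0.93 in HuCCT1 and 0.33 in KKU-100 at that dose, so the probe sets disagree in sign in KKU-100. With the low dose of KKU-100 this second probe set was higher past 1.5-fold, at 1.21, where the brightest stood at 0.07. That spread of 1.14 was the widest of a member in this comparison, so a CENPF call there depends on the probe set. Between the doses the second probe set was lower past the cutoff for each line (HuCCT1 −1.02, KKU-100 −0.88), unlike the brightest. CENPA, the histone that marks centromeres, was the kinetochore gene above 0 at the high dose in HuCCT1, with 791, 805 and 914 there and 314, 347 and 307 in KKU-100. NDC80, NUF2 and CENPE, a kinesin of the kinetochore, stayed within 1.5-fold throughout.

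The 4 subunits of the chromosomal passenger complex, which corrects faulty attachments, ranged at the high dose in HuCCT1 from −0.94 (INCENP) to 0.44 (AURKB). INCENP, its scaffold, had 125, 88.8 and 65.3 in HuCCT1 against 37.8, 34.4 and 31.2 in KKU-100, with log2 fold changes of −0.49 and −0.94 in HuCCT1 against −0.13 and −0.28 in KKU-100. Both lines stepped down, but the KKU-100 signals lie just above the array medians of 28.8 to 29.3. AURKB (Aurora B), the kinase of the complex, had 756, 744 and 1025 in HuCCT1 against 190.4, 245 and 221 in KKU-100, and its 0.44 at the high dose was the largest value of a member there, within 1.5-fold. BIRC5 (survivin) had 2802, 2947 and 2576 in HuCCT1 against 991, 1202 and 946 in KKU-100, and CDCA8 (borealin) had 1137, 1095 and 1246 in HuCCT1 against 524, 579 and 435 in KKU-100. Neither passed the cutoff in any comparison. TOP2A, the topoisomerase that untangles chromosomes, had 2774, 3124 and 2509.7 in HuCCT1 against 1039.5, 1412 and 910.2 in KKU-100, and it was lower past 1.5-fold between the doses in KKU-100, with a log2 fold change of −0.63.

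Of the 10 spindle motors and microtubule proteins, PRC1, DLGAP5 and KIF20A passed the cutoff. PRC1, which bundles antiparallel microtubules of the central spindle, had 2819, 2651 and 1849.9 in HuCCT1 against 871, 1609 and 1095 in KKU-100. Its log2 fold changes were −0.09 and −0.61 in HuCCT1 but 0.89 and 0.33 in KKU-100, past 1.5-fold lower at the high dose in the first line and higher at the low dose in the second. DLGAP5, which stabilizes kinetochore fibers, had 2336, 2972 and 1808 in HuCCT1 against 452, 816 and 486 in KKU-100, and was lower past 1.5-fold between the doses in both lines, with −0.72 in HuCCT1 and −0.75 in KKU-100. In KKU-100 its changes from solvent were 0.85 and 0.11, the first of them past the cutoff. KIF20A was lower between the doses with −0.53 in HuCCT1 and −0.67 in KKU-100, past the cutoff in KKU-100. KIF4A, a chromokinesin, had 1026, 1058 and 824 in HuCCT1 against 466, 489 and 354 in KKU-100, and NUSAP1, a microtubule binding protein, had 2785, 3621 and 2824 in HuCCT1 against 1921, 1871 and 1496 in KKU-100. These 2 genes were within 1.5-fold, and NUSAP1 was highest at the low dose in HuCCT1 and highest in solvent in KKU-100. KIF11, the motor that pushes spindle poles apart, KIF2C, a microtubule depolymerase, KIF23, a motor of cytokinesis, TPX2, an activator of AURKA, and HMMR also stayed within 1.5-fold.

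Of the cytokinesis genes and partners of the anaphase-promoting complex, CDC20 alone passed 1.5-fold. ANLN and ECT2, the exchange factor that activates RhoA at the furrow, stayed within 1.5-fold in all 6 comparisons by their brightest probe sets. A second ANLN probe set had −0.76 between the doses in KKU-100, and the second ECT2 probe set had −1.27. CDC20, the activator of the complex, had 4473, 4199 and 3559 in HuCCT1 against 833, 1557 and 1229 in KKU-100, with log2 fold changes of −0.09 and −0.33 in HuCCT1 against 0.90 and 0.56 in KKU-100. Its 3 arrays stepped down in HuCCT1, whereas both treated arrays were above solvent in KKU-100. UBE2C, the ubiquitin-conjugating enzyme of the complex, had 5085, 4362 and 3886 in HuCCT1 against 2000.2, 2639 and 1992 in KKU-100. PTTG1 (securin), which restrains separase until anaphase, had 7311, 7877 and 6539 in HuCCT1 against 3826, 3586 and 2993 in KKU-100, with the high dose array lowest in both lines and no change past 1.5-fold.

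No member passed limma for a change common to both lines. With the line as a block and 2 residual degrees of freedom, limma called 0 of 40 genes, and 0 of all 12833 genes, at either dose and between the doses. At the high dose 5 members were lower at an unadjusted p under 0.05 and none was higher, where 4.9% of all genes were lower and 10% higher, and 29 of 40 were below 0 (44.6%). The smallest adjusted p by limma was 0.190, for CDK1, with −0.30 ± 0.07 (SE). PTTG1 followed with −0.26 ± 0.08 and an adjusted p of 0.230, CENPF with −0.44 ± 0.13 and 0.237, INCENP with −0.61 ± 0.19 and 0.256, and KIF4A with −0.36 ± 0.13 and 0.301, all from limma. Each of these 5 genes was below its solvent array in both lines. Between the doses, 14 members were lower at an unadjusted p under 0.05 and none higher (3.28% and 7.11% of all genes), 38 of 40 were below 0 (51.2%), and the median was −0.29. DLGAP5 had the largest of these differences, with −0.73 ± 0.16 (SE) and an adjusted p of 0.395 by limma. At the low dose 6 members were higher and none lower at that unadjusted level (6.14% and 5.07%), 34 of 40 were above 0 (57.3%), and the smallest adjusted p by limma was 0.376.

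These counts rest on single solvent arrays. Without the HuCCT1 solvent array, limma called 8 members higher at the low dose (BUB1B, CDC20, CDC25B, DLGAP5, ECT2, HMMR, PLK1 and PRC1), CDC20 higher at the high dose, and ANLN, CDC25B, DLGAP5 and PRC1 lower between the doses. Without the KKU-100 solvent array it called PRC1 lower at the high dose, and ANLN, CDC25B, DLGAP5, KIF20A and PRC1 lower between the doses. PRC1 stood at −0.62 in the second case, where the solvent comparison is left to HuCCT1, and CDC20 at 0.59 in the first, where it is left to KKU-100. Leaving out any of the other 4 arrays gave 0 calls for the doses. The share of all genes called with 1 array left out is not given, so these calls have no background beside them. Whether the response differed between the lines could not be tested with 1 array for each condition.

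The wider mitotic machinery was counted beside all genes. Of 158 measured related genes in HuCCT1, 1 was lower and none higher past 1.5-fold at the low dose, and the high dose array had 7 lower and 4 higher, with medians of 0.00 and −0.02. Of all genes, the low dose array had 3.32% lower and 3.68% higher, and the high dose array 6.44% lower and 8.23% higher. CDC25A, the phosphatase of the CDC25 family that acts earlier in the cycle, was lower at both doses, past 1.5-fold, with signals of 561.9 in solvent, 280.4 with the low dose and 280.1 with the high dose. In KKU-100, of 157 genes, the low dose array had 10 lower and 19 higher, and the high dose array 8 lower and 10 higher, with medians of 0.12 and 0.03. Of all genes, 7.32% were lower and 9.75% higher on the first of these arrays, against 4.86% lower and 9.44% higher on the second. CENPI, a centromere protein, was higher by 1.53 and 1.09 at the low and high dose. Its solvent signal of 20.6 lay below the array median of 29.2, so it passed the level filter through its treated arrays. PSRC1, a spindle protein, was higher by 1.33 and 0.80. KNSTRN, a kinetochore adaptor, was higher by 1.24 and 0.85, E2F5, a subunit of the DREAM repressor, by 1.07 and 0.83, and NSL1, of the kinetochore, by 0.84 at both. Some genes of these lists were lower at both doses. NIPBL, which loads cohesin, had signals of 784.3, 223.2 and 212.7, which gave −1.81 and −1.88. HAUS3, of the augmin complex, had −1.41 and −0.66, CENPC, which builds the inner kinetochore, had −0.85 and −1.14, and TUBB4B, a tubulin, had −0.84 and −1.12. For the high against the low dose, 111 of the 157 related genes were below 0 in KKU-100 (51% of all genes), with a median of −0.14. In HuCCT1 88 of 158 were below 0 in that comparison (50.8% of all genes), with a median of −0.03.

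Of 41 DNA replication genes, which act before mitosis, 35 lay above solvent with the low dose of KKU-100, where 57.7% of all genes did. There 13 were higher and 2 lower past 1.5-fold (9.75% and 7.32% of all genes), with a median of 0.35, and for the high dose array 7 were higher and 3 lower (9.44% and 4.86%), with a median of 0.23. Between the doses 33 of 41 were below 0, with a median of −0.15. In HuCCT1 their medians were −0.06 (low dose) and −0.05 (high dose). The 12 housekeeping genes had medians between −0.11 and 0.01 over the 6 comparisons. The difference between these lists and the 40 genes was not tested.

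Both lines expressed biliary keratins, but not the same markers. KRT7, KRT8, KRT18, SOX9 and MUC1 were above the array median on all 6 arrays, whereas KRT19, EPCAM and CFTR were above it in HuCCT1 alone. KRT19 and EPCAM had signals between 8.62 and 11.1 in KKU-100. Of the hepatocyte markers, ALB, APOA1 and TF were below the median on all arrays, whereas CYP3A4 and SERPINA1 were above it on all, with SERPINA1 at 2411 to 3509 in HuCCT1 and 147.0 to 161.0 in KKU-100. Of the leukocyte markers PTPRC and LYZ were below it on all arrays and CD3E above it, and of the endothelial markers CDH5 and KDR were below it and PECAM1 above it. Of the fibroblast markers, COL1A2 was below it on all arrays and COL3A1 was at 538.0 to 778.5 in KKU-100 and at most 8.63 in HuCCT1. Of the 5 fibroblast markers, 2 (COL1A1 and DCN) were above the median on all 6 arrays. The summed signal of the 5 lay between 232.8 and 270.8 in HuCCT1 and was 785.7, 1062 and 796.9 in KKU-100 for solvent, low and high dose, with the low dose array highest as for most members. Their part in the gap between HuCCT1 and KKU-100 was not tested.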

How the data were processed

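Total RNA of the 6 samples was hybridized to Affymetrix arrays. The authors deposited a linear signal intensity for each probe set. MAS5 is the tool that the submitters' notes name for it, and GeneSpring with log2 normalization stands in the study's methods. Signals of all 6 arrays shared nearly the same range, with medians from 28.8 to 29.3, so they were taken as scaled and were only log2 transformed. The number of arrays limits the precision. The 62 control probe sets were left out. Of the others, 41091 probe sets carry 1 gene symbol in the array annotation, 1801 carry several and 11721 carry none, and 1 probe set of a member shared with another gene was left out.

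The level filter kept, in each line, genes with a mean log2 signal at or above the 50th percentile of all probe sets. Single arrays were compared at 1.5-fold. Changes common to both lines, and the difference between the lines, were fitted with limma 3.58.1, run in R 4.3.3, with line and treatment as terms, a trended eBayes and Benjamini-Hochberg adjustment over all genes at 0.05, after a check on simulated data. Other steps used Python 3.11.15 with pandas 2.3.3 and numpy 2.4.6. Promoter sequences came from RefSeq.

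The members and lists were chosen with earlier results of these data known. Signals on all 6 arrays are given for the 6 largest falls and 4 largest rises at the high dose in each line, for members past 1.5-fold at both doses or in opposite directions in the lines, for the 5 members with the lowest limma p, both for the high dose and between the lines, and for CCNB1, CDK1, PLK1, AURKA, FOXM1, TOP2A and BIRC5. This rule picks most of the named members by their values. DLGAP5, past 1.5-fold in a comparison but outside the rule, was given its signals after its values were seen. Of each of the 8 related lists up to 3 genes past 1.5-fold at both doses of a line are named. Alternatives were quantile normalization, centring on the array median, other level filters, all probe sets of a gene and probe sets specific to 1 gene. Further ones were a cutoff of 2-fold, other eBayes options, a paired t-test and leaving out each array.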

Additional observations from a re-analysis of the deposited data

Results flagged for a closer look

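In 9 of the 40 members the treated arrays of the 2 lines lay on opposite sides of solvent at both doses. In 4 of them (PLK1, PRC1, CDC20 and CDC25C) a change passed 1.5-fold. The share of all genes with this pattern was not counted, so the 9 have no background beside them. Some of the values lie near 0, such as 0.02 for NUSAP1 in HuCCT1 at the high dose. The difference between the lines in the log2 fold change at the high dose (KKU-100 minus HuCCT1) was 1.20 for PLK1, which had 0.78 in KKU-100 and −0.43 in HuCCT1. It was 0.94 for PRC1 (0.33 and −0.61) and 0.89 for CDC20 (0.56 and −0.33). For CDC25C it was −1.21, with −0.85 in KKU-100 and 0.36 in HuCCT1. The other 5 stayed within 1.5-fold, with differences of 0.55 for BUB3, 0.21 for AURKA, 0.21 for MAD2L1, −0.34 for KIF2C and −0.38 for NUSAP1. None of these differences was tested, since there was 1 array for each condition, and both doses of a line share its solvent array. The ACTB 3′ to 5′ ratio of the KKU-100 high dose array was 1.68, and its part in these values was not tested. The ACTB ratio of the KKU-100 low dose array was 1.23. The 9 genes were picked for their signs at both doses, so equal signs at the 2 doses were fixed by that choice.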

How the results depend on the processing

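With 1 array for each condition, no difference within a line has a replicate check, and weak signals such as those of INCENP and PLK1 in KKU-100 add to this limit. Of 1359 gene values under 6 alternatives, 1340 stayed on the same side of 1.5-fold, 19 crossed it and 0 changed sign as called values. All 36 medians of the 40 genes kept their sign. Of 204 counts, 181 stayed within 1.5 times the reported count. The cause of the other 23 was not tested, apart from the stricter cutoff and the smaller number of genes or arrays.

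A 2-fold cutoff left 0 lower at the high dose and 0 lower between the doses in HuCCT1. In KKU-100 it left 0 lower and 2 higher at the low dose, 0 lower and 0 higher at the high dose and 0 lower between the doses. With only the probe sets specific to 1 gene, 26 members were left in KKU-100. CDC25C dropped out, and the counts of lower members there were 0 for the low dose and 0 for the high dose. CDC25B, PRC1 and CDC20, all higher past 1.5-fold at the low dose in KKU-100, dropped out as well. The count of higher members at this setting is not given. With all probe sets of a gene, 2 were lower and 1 (AURKB) higher between the doses in HuCCT1, 3 were lower in KKU-100 for the high dose (CDK1 at −0.60 and NUSAP1 at −0.72 beside CDC25C) and 10 were lower between the doses. Quantile normalization gave 2 lower between the doses in HuCCT1, and centring gave 2 higher at the high dose in KKU-100, with CDC20 at 0.59. The shares of all genes called under these alternative settings are not given, so these counts have no background beside them. Leaving out each array in turn, limma called 0 to 8 members higher and 0 lower at the low dose, 0 to 1 lower and 0 to 1 higher at the high dose and 0 to 5 lower between the doses. The calls came with either solvent array left out, where the lone solvent array is assumed to vary like the others. The shares of all genes called with an array left out are not given either. The line difference gave 39 lower each time and 0 to 1 higher, which was CDC25B without either solvent array. A paired t-test, adjusted by Benjamini-Hochberg, called 25 members lower in KKU-100 from differences over the 3 treatments. From differences over the 2 lines it called 0 for the doses. The share of all genes that this test called is not given. The limma fits compared the doses within each line, with the line as the block, and the labels carry no replicate numbers for another pairing.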
